A study of Mus musculus with 8 samples.

Results

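The genes described here are 10 regulators of the G1 phase of the cell cycle, 4 cyclins (Ccnd1, Ccnd2, Ccnd3 and Ccne1) and 6 inhibitors of cyclin-dependent kinases (Cdkn1a, Cdkn1b, Cdkn1c, Cdkn2a, Cdkn2b and Cdkn2c). They were chosen by gene symbol among the 22274 genes of the deposited table, with earlier results of these data known. Each of the 10 passed the filter on low counts, as did 13533 genes in all. RNA was sequenced from primary murine cardiac fibroblasts, cultured cells that make the collagen of the heart, in 4 libraries labelled GFP and 4 libraries labelled OEIRF7. The GFP libraries carried an empty vector and the OEIRF7 libraries a vector for IRF7, a transcription factor of the interferon response. Both groups received TGF-β, a cytokine known for turning fibroblasts into myofibroblasts, at 5 ng/ml for 24 h, so no library without TGF-β enters the comparison. The methods name an adenovirus with the CMV promoter and the human IRF7 gene, while the deposited description names an adeno-associated virus. The methods put the study's mouse strains on a C57BL/6J background without naming the animals that gave these cells, and the sex and age of those animals are not given in the sources used here. The labels do not say that the replicates came from separate cultures or animals, and the study's legend names fewer biological replicates than there are libraries in a group, so p-values measure the spread between these libraries, part of which may be technical.

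D-type cyclins bind the kinases CDK4 and CDK6 and are made in response to growth signals, and the active kinases phosphorylate the retinoblastoma protein, which then releases E2F factors. E2F switches on Ccne1, whose product activates CDK2 and carries the cell into S phase. INK4 inhibitors (Cdkn2a, Cdkn2b, Cdkn2c) bind CDK4 and CDK6 directly, and CIP/KIP inhibitors (Cdkn1a, Cdkn1b, Cdkn1c) bind cyclin-kinase complexes, CDK2 among them. In fibroblasts several of these inhibitors are known for their part in growth arrest by TGF-β, in the p53 response and in senescence.

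All 4 G1 cyclins were lower in the libraries labelled OEIRF7, Ccnd2 most of all, as it fell by 57.1%. The inhibitors did not move together. Cdkn1a and Cdkn1c rose, Cdkn1b fell slightly, and Cdkn2a, Cdkn2b and Cdkn2c did not pass the test. Thus 2 of the 10 genes rose, where 29% of all tested genes rose, and 5 fell, where 29.9% of all tested genes fell, with edgeR's quasi-likelihood test and an adjusted p of 0.05 as threshold. Of the 10 genes, 7 were called in either direction, against 58.9% of all tested genes, so that the share of called genes was near that of the whole table. The median log2 fold change (OEIRF7 against GFP) was -0.16 over the 10 genes and 0 over all tested genes. In these bulk samples, fewer cells that express a gene and less RNA of it per cell cannot be told apart.

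Total counts per library lay between 24888589 and 27095611 in the GFP group and between 24454801 and 28658826 in the OEIRF7 group, and the 10 genes took 0.169% to 0.181% and 0.132% to 0.142% of them. Mouse Irf7 was at 118 ± 24 CPM (SD, n = 4) in the libraries labelled GFP and at 15.2 ± 0.822 CPM (SD, n = 4) in those labelled OEIRF7, where CPM are counts scaled to library size by the TMM method. Reads of a human transgene would not be counted as mouse Irf7, in which case this is no check of the labels, whereas for a mouse transgene the fall goes against them. Directions therefore refer to the labels. The fibroblast markers Col1a1, Col1a2, Pdgfra, Tcf21, Dcn and Pdgfrb were detected in every library. They summed to 10200 to 10700 CPM with the label GFP and to 9350 to 10100 CPM with the label OEIRF7, and 1 of the 6 rose and 3 fell. Most of this sum was Col1a1 and Col1a2. Tcf21 fell most, from a mean of 58.3 to 23.1 CPM (edgeR adjusted p = 2e-08), and Pdgfra rose from 122 to 145 CPM. Markers of other cell types differed between the groups as well. The 6 mural markers summed to 28.8 to 34.7 CPM against 68.7 to 84.6 CPM (3 rose and 1 fell of 5 tested), the 6 macrophage markers to 256 to 306 against 325 to 355 CPM (4 rose, none fell), and the 6 epicardial or mesothelial markers to 151 to 159 against 105 to 119 CPM (2 rose and 2 fell). Most of the mural sum was Cspg4, with means of 22.4 CPM (GFP) and 63.3 CPM (OEIRF7). Of the other mural markers, Rgs5 rose from 4.17 to 6.92 CPM, Des rose from 0.813 to 1.73 CPM and Myh11 fell from 3.47 to 1.76 CPM. Most of the macrophage sum was Lyz2, with means of 202 CPM (GFP) and 235 CPM (OEIRF7), and Ptprc and Csf1r did not pass the test. The 6 endothelial markers summed to 203 to 216 against 206 to 231 CPM (3 rose, 1 fell). Of the 6 cardiomyocyte markers only Tnnt2 passed the filter, and it fell, with the 6 together at 9.57 to 13.4 and 7.58 to 9.46 CPM, and Myh6 had 1 read in all libraries together. The part of these cells in the results for the cyclins and inhibitors was not tested.

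The start regions that could be read are shown first, because they carry the letters by which some of these genes are known to be addressed. RefSeq (GRCm38.p6) gave 11 start regions for 7 of the 10 genes, and none was found for Cdkn1c, Ccnd1 and Ccnd2. In the 250 bases before each start 7 motifs were searched on both strands. The GC box GGGCGG, the letters bound by Sp1, was found in 7 of the 11 regions and in 32.7% of 32851 regions of all genes. The cyclic AMP response element TGACGTCA was found in the Cdkn2b region and in 1.55% of all regions. A pair of p53 decamers with a gap of at most 13 bases was found in the region before the upstream start of Cdkn1a and in 0.0639% of all regions. The decamers were matched with no differing base allowed, so a p53 site with a differing base is not in capitals below. The IRF element, GAAA repeated after any 2 bases (2.98% of all regions), the E2F site TTTCGCGC or TTTGGCGC (0.654%), the Myc E-box CACGTG (6.02%) and the AP-1 site TGANTCA (6.75%) were in none of the 11. The E2F site was searched only in these exact letters, so an E2F site in other letters would have been missed. A match is a description of the letters in these windows only. The 4 stretches below run 5′ to 3′ on the gene's own strand and end where the first annotated transcript begins or at the RefSeq start, with the motifs in capitals. They are shown for the cyclin that E2F controls and for the INK4 gene known to respond to TGF-β. Cdkn1a, the inhibitor that p53 controls, is shown with both of its RefSeq starts.
Ccne1, minus strand, chr7:38107535-38107740, GC boxes in capitals: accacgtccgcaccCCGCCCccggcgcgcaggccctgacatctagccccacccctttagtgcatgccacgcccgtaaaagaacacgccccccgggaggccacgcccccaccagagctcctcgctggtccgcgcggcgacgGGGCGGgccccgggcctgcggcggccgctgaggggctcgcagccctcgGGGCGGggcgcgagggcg
Cdkn1a upstream start, plus strand, chr17:29090729-29090975, the p53 decamers and the bases between them in capitals: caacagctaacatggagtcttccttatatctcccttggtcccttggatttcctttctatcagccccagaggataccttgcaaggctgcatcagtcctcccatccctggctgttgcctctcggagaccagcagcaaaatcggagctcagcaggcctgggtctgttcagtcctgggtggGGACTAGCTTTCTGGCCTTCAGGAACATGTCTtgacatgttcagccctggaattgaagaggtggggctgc
Cdkn1a downstream start, plus strand, chr17:29093519-29093768, GC boxes in capitals: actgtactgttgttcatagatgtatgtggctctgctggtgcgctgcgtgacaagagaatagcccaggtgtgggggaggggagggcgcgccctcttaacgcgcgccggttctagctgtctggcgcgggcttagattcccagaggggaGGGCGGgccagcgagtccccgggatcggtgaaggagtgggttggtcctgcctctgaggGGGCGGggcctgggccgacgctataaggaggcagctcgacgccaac
Cdkn2b, minus strand, chr4:89311040-89311282, the cyclic AMP response element in capitals: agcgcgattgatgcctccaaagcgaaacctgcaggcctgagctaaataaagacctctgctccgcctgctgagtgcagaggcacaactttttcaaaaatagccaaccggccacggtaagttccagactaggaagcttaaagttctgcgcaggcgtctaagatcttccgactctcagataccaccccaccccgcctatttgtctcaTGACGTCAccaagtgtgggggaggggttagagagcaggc
Over the full 250 bases before the RefSeq start, Ccne1 has 76% G and C and the downstream start of Cdkn1a 64.8%. The upstream start of Cdkn1a has 54% and Cdkn2b 53.6%. Over all 32851 regions the median was 52.4% and the upper quartile 61.2%.

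Among the D-type cyclins, Ccnd2 differed most. Ccnd2 (ENSMUSG00000000184, minus strand of chromosome 6 of GRCm38, 127125162 to 127152193) encodes cyclin D2. Its CPM were 624, 639, 625 and 685 in the GFP libraries 1 to 4 and 275, 289, 254 and 286 in the OEIRF7 libraries 1 to 4. Each OEIRF7 library lay below each GFP library by a wide margin, and replicates of one group lay close together. The means were 643 ± 28.5 and 276 ± 15.6 CPM (SD, n = 4 each), a level 2.33-fold higher with the label GFP. The log2 fold change was -1.22 (standard error 0.043, 95% interval -1.31 to -1.13, adjusted p = 2.1e-11, edgeR's quasi-likelihood test), and 5.84% of the tested genes had a change of larger size. The groups did not overlap (p = 0.029 in the exact two-sided permutation test, which is the lowest possible p for this number of libraries). The CPM of the groups did not overlap for 7 of the 10 genes, against 53.8% of all tested genes, and each of the 7 had this same p. The antisense genes Gm43126 and 9330179D12Rik overlap Ccnd2 on the opposite strand and are not in the table.

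Ccnd1 (ENSMUSG00000070348, minus strand of chromosome 7, 144929931 to 144939925) encodes cyclin D1, the D-type cyclin best known as an early target of growth factor signaling. Its CPM were 325, 358, 367 and 387 in the GFP libraries and 256, 271, 227 and 280 in the OEIRF7 libraries. The groups did not overlap, although the spread within each group was wider, relative to the mean, than for Ccnd2. The means were 359 ± 25.9 and 259 ± 22.9 CPM (SD, n = 4 each), and the level fell by 28.0%, with a log2 fold change of -0.47 (standard error 0.061, 95% interval -0.60 to -0.34, edgeR adjusted p = 1e-05). Ccnd1 overlaps LTO1 on the opposite strand, which also fell, with a log2 fold change of -0.29 (edgeR adjusted p = 8.3e-05), and the strand setting of the counting is not given in the sources used here.

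Ccnd3 (ENSMUSG00000034165, plus strand of chromosome 17, 47505051 to 47599691) encodes cyclin D3. Its CPM were 134, 129, 132 and 128 in the GFP libraries and 113, 110, 116 and 120 in the OEIRF7 libraries. The difference was small and the groups were still apart, since the replicates of each group lay close together. The means were 131 ± 3.03 and 115 ± 4.46 CPM (SD, n = 4 each), with a log2 fold change of -0.19 (standard error 0.037, 95% interval -0.27 to -0.11, edgeR adjusted p = 4.2e-04). Bysl overlaps Ccnd3 on the opposite strand and moved the other way, with a log2 fold change of 0.23 (edgeR adjusted p = 6.1e-04). The 95% intervals of the log2 fold changes of Ccnd1, Ccnd2 and Ccnd3 do not overlap each other.

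Ccne1 (ENSMUSG00000002068, minus strand of chromosome 7, 38097984 to 38107534) encodes cyclin E1, the partner of CDK2 at the entry into S phase. It rested on far fewer reads than the D-type cyclins, with counts of 243, 201, 202 and 195 in the GFP libraries and 122, 118, 121 and 145 in the OEIRF7 libraries. Its CPM were 9.07, 8.05, 8.18 and 7.44 against 4.73, 4.07, 4.75 and 5.88. The OEIRF7 library 4 was the highest of its group and still lay below each GFP library. The means were 8.19 ± 0.673 and 4.86 ± 0.752 CPM (SD, n = 4 each), and the level fell by 40.7%, with a log2 fold change of -0.76 (standard error 0.12, 95% interval -1.01 to -0.51, edgeR adjusted p = 5.4e-05). Mki67, a marker of dividing cells that was looked at beside the cyclins, was at 23.0 ± 1.45 CPM with the label GFP and at 9.57 ± 0.763 CPM with the label OEIRF7 (SD, n = 4 each).

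**Figure D1:**
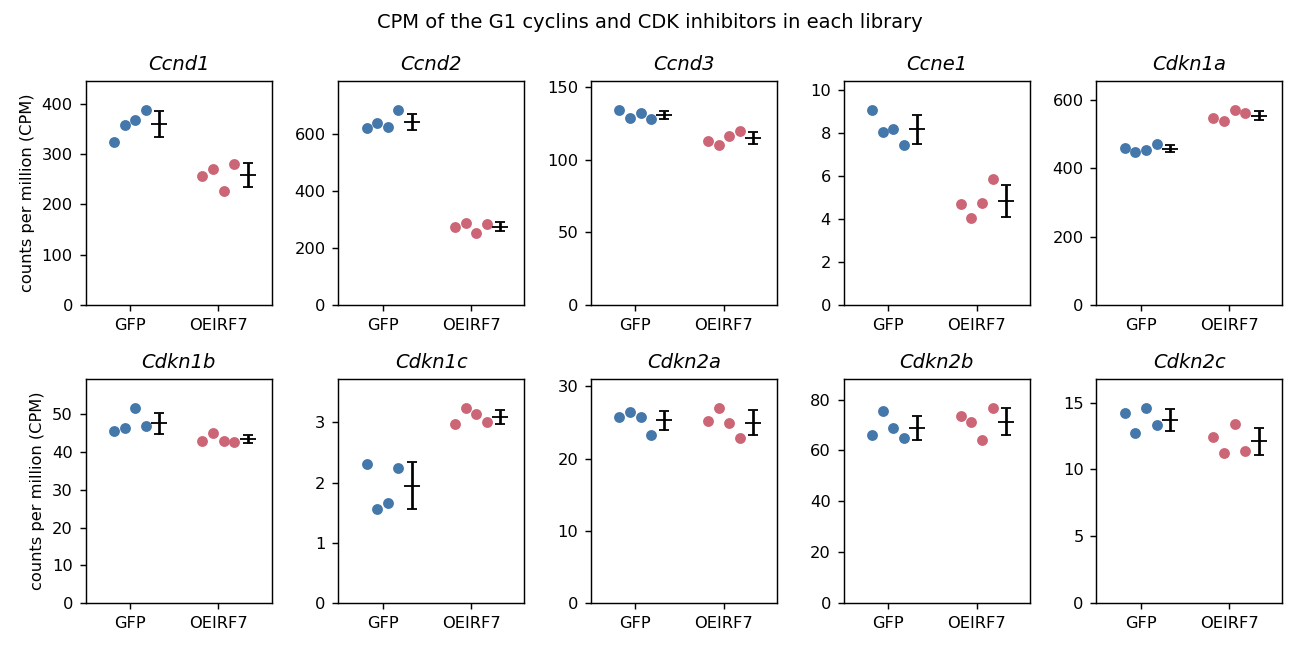
CPM (counts scaled to library size, linear axes from 0) of the 10 genes in the 4 libraries labelled GFP (blue) and the 4 labelled OEIRF7 (red), with the mean and SD in black beside the points. The groups are apart for the 4 cyclins, Cdkn1a, Cdkn1b and Cdkn1c, and overlap for Cdkn2a, Cdkn2b and Cdkn2c.

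Of the CIP/KIP inhibitors, Cdkn1a and Cdkn1c rose. Cdkn1a (ENSMUSG00000023067, plus strand of chromosome 17, 29090976 to 29100727) encodes p21, the best-known target of p53 among the inhibitors. Its CPM were 459, 448, 453 and 471 in the GFP libraries and 546, 540, 570 and 562 in the OEIRF7 libraries. Replicates lay within a narrow range in both groups, and the groups did not overlap. The means were 458 ± 10 and 554 ± 13.8 CPM (SD, n = 4 each), an increase of 21.1% with a log2 fold change of 0.28 (standard error 0.030, 95% interval 0.21 to 0.34, edgeR adjusted p = 1.9e-06). The size of the change was modest, as 46.6% of the tested genes had a larger one. The gene AC167363.2 overlaps Cdkn1a on the opposite strand and is not in the table.

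Cdkn1c (ENSMUSG00000037664, minus strand of chromosome 7, 143458339 to 143461050) encodes p57, an imprinted gene expressed from the maternal copy. It had 62, 39, 41 and 59 counts in the GFP libraries and 77, 94, 80 and 74 counts in the OEIRF7 libraries. These were the lowest counts of the 10 genes, and GFP libraries 2 and 3 lay below GFP libraries 1 and 4. The means were 1.95 ± 0.390 and 3.09 ± 0.121 CPM (SD, n = 4 each), with a log2 fold change of 0.66 (standard error 0.17, 95% interval 0.30 to 1.02, edgeR adjusted p = 0.0035). The antisense gene Gm44732 overlaps it on the opposite strand and is not in the table.

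Cdkn1b (ENSMUSG00000003031, plus strand of chromosome 6, 134920401 to 134925513) encodes p27, an inhibitor that is abundant in resting cells and is controlled to a large part through the stability of its protein, which RNA counts do not show. Its CPM were 45.6, 46.4, 51.7 and 46.8 in the GFP libraries and 43.0, 45.0, 43.0 and 42.8 in the OEIRF7 libraries. The groups came close to each other, with OEIRF7 library 2 just below GFP library 1 and GFP library 3 above all others. The log2 fold change was -0.13 (standard error 0.047, 95% interval -0.23 to -0.03, edgeR adjusted p = 0.026), from 47.6 ± 2.77 to 43.4 ± 1.04 CPM (SD, n = 4 each). This call rested on single libraries. Without GFP library 3 the log2 fold change was -0.09 (adjusted p = 0.10), without OEIRF7 library 1 it was -0.13 (adjusted p = 0.060) and without OEIRF7 library 4 it was -0.13 (adjusted p = 0.054, all from edgeR), and with no scaling beyond library size it was -0.10 (adjusted p = 0.072).

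None of the INK4 inhibitors passed the test with all 8 libraries and no covariates. Cdkn2a (ENSMUSG00000044303, minus strand of chromosome 4, 89274471 to 89294653) gives rise to both p16INK4a and p19Arf from separate starts, and the counts per gene pool the 2 transcripts. Its CPM were 25.7, 26.4, 25.7 and 23.3 in the GFP libraries and 25.2, 27.0, 24.9 and 22.8 in the OEIRF7 libraries. The groups overlapped throughout. The log2 fold change was -0.02 (standard error 0.062, edgeR adjusted p = 0.83), and its 95% interval ran from -0.15 to 0.12.

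Cdkn2b (ENSMUSG00000073802, minus strand of chromosome 4, 89306299 to 89311039) encodes p15INK4b, which is known to be induced by TGF-β, given here to both groups. Its CPM were 65.9, 75.4, 68.7 and 64.8 in the GFP libraries and 73.6, 71.2, 64.0 and 76.7 in the OEIRF7 libraries. Both the lowest and the highest value were in the OEIRF7 group. The log2 fold change was 0.06 (standard error 0.058, 95% interval -0.07 to 0.18, edgeR adjusted p = 0.44).

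Cdkn2c (ENSMUSG00000028551, minus strand of chromosome 4, 109660876 to 109667189) encodes p18INK4c. Its CPM were 14.2, 12.7, 14.6 and 13.3 in the GFP libraries and 12.4, 11.2, 13.4 and 11.4 in the OEIRF7 libraries. The OEIRF7 library 3 lay within the range of the GFP group, and the other three lay below it. The log2 fold change was -0.18 (standard error 0.078, 95% interval -0.35 to -0.01, edgeR adjusted p = 0.061), which misses the threshold. It passed without OEIRF7 library 3 (-0.23, adjusted p = 0.022) and without GFP library 2 (-0.21, adjusted p = 0.037, both from edgeR). With the replicate number as a block it also passed (-0.18, edgeR adjusted p = 0.038), although the labels do not say that same-numbered libraries are pairs. In exact two-sided permutation tests of log2 CPM, p was 0.74 for Cdkn2a, 0.49 for Cdkn2b and 0.086 for Cdkn2c.

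**Figure D2:**
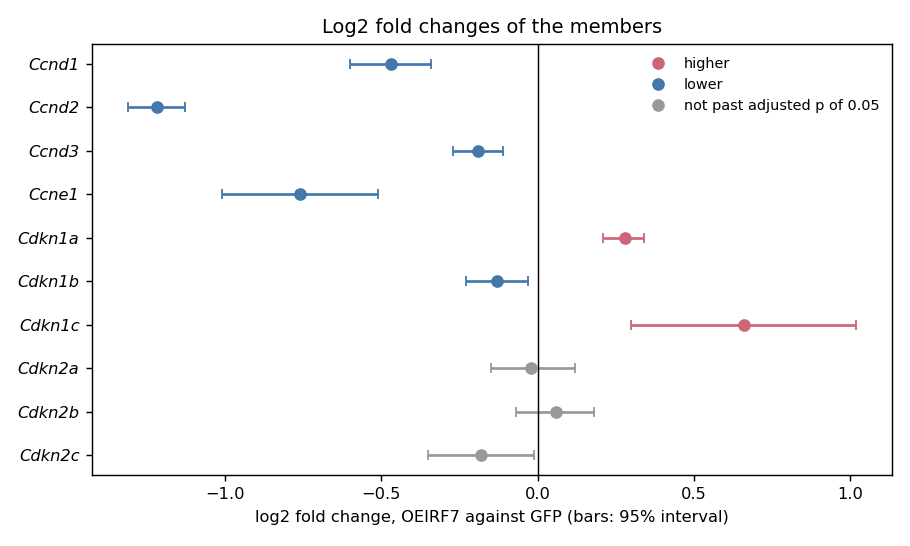
Log2 fold change of each of the 10 genes (x axis, OEIRF7 against GFP, edgeR) with its 95% interval, red for higher, blue for lower and grey for genes that did not pass an adjusted p of 0.05. The point of Ccnd2 is at -1.22, the other cyclins are at -0.76 to -0.19, Cdkn1c and Cdkn1a are above 0, and the intervals of Cdkn2a and Cdkn2b include 0.

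To compare levels between genes, the FPKM deposited by the authors were used, which are divided by gene length. In the GFP libraries Cdkn1a had the highest level of the 10 genes, 258 ± 7.60 FPKM (SD, n = 4), above 98.5% of the tested genes by its mean over all libraries. Ccnd2 followed at 102 ± 4.06 and Ccnd1 at 95 ± 6.85 FPKM, and these neighbours overlapped between libraries. Ccnd3 was at 74.6 ± 2.46, Cdkn2b at 48.9 ± 3.46, Cdkn2a at 29 ± 1.56 and Cdkn1b at 18.1 ± 1.17 FPKM. The lowest levels were those of Cdkn2c at 8.43 ± 0.774, Ccne1 at 4.48 ± 0.849 and Cdkn1c at 1.24 ± 0.251 FPKM, and apart from Ccnd2 and Ccnd1 no neighbours in this order overlapped.

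In the OEIRF7 libraries the order differed at the cyclins. Cdkn1a was again first, at 313 ± 7.20 FPKM (SD, n = 4), and Ccnd1 at 69.8 ± 6.41 and Ccnd3 at 63.4 ± 2.59 FPKM came next and overlapped. Ccnd2 came after both and was at 44.9 ± 2.63 FPKM, below Cdkn2b at 51.8 ± 4.12 FPKM, with which it overlapped. Cdkn2a at 29.3 ± 2.10, Cdkn1b at 16.8 ± 0.277 and Cdkn2c at 7.89 ± 0.752 FPKM kept their places. Ccne1 at 2.50 ± 0.318 and Cdkn1c at 2.09 ± 0.346 FPKM, which were apart with the label GFP, overlapped. For these last genes FPKM and CPM did not keep a fixed ratio, as FPKM per CPM varied 1.66-fold between libraries for Cdkn1c and 1.42-fold for Ccne1, against 1.03-fold for Ccnd1 and Ccnd2.

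**Figure D3:**
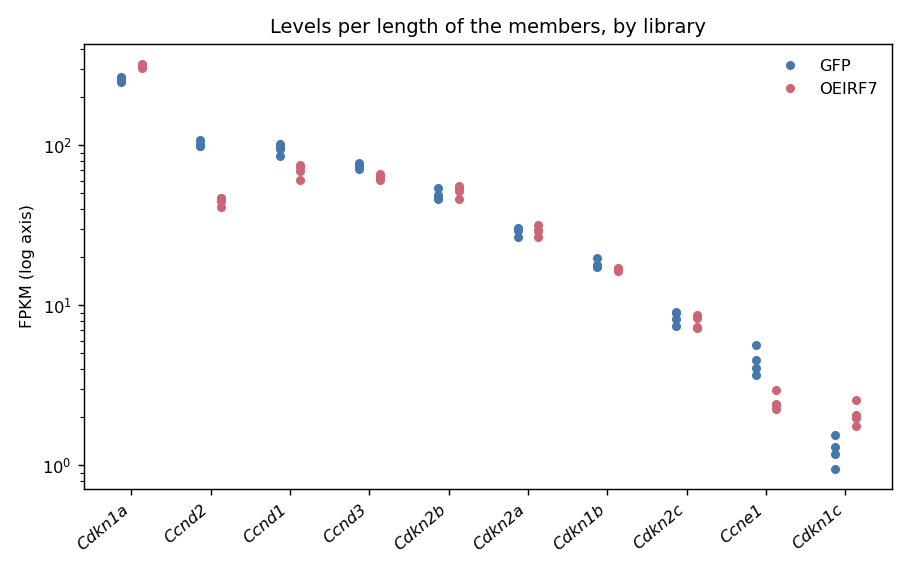
FPKM of the 10 genes (log axis) in each of the 4 GFP libraries (blue) and 4 OEIRF7 libraries (red), ordered by the mean of the GFP group. Ccnd2 is second by its GFP points and lies below Ccnd1 and Ccnd3 by its OEIRF7 points, while the points of Cdkn2a and Cdkn2b cover the same range in both groups.

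The makeup of the D-type cyclin RNA differed between the groups. Summed over Ccnd1, Ccnd2 and Ccnd3, the level was 272 ± 9.43 FPKM in the GFP libraries and 178 ± 10.4 FPKM in the OEIRF7 libraries (SD, n = 4 each), with ranges of 263 to 285 and 164 to 189. Ccnd2 held 37.9%, 37.8%, 36.7% and 37.9% of the sum in the GFP libraries and 25.1%, 26.0%, 25.1% and 24.7% in the OEIRF7 libraries. The share of Ccnd2 was thus lower in each OEIRF7 library than in each GFP library. Of the difference of 93.7 FPKM between the group means, Ccnd2 made up 57.2 FPKM (61%), Ccnd1 25.3 FPKM (27%) and Ccnd3 11.2 FPKM (12%). The mean share of Ccnd1 was 35.0% with the label GFP and 39.2% with the label OEIRF7, and that of Ccnd3 was 27.5% and 35.6%, with no overlap between the groups for either. Without the division by gene length, in CPM, Ccnd2 held 56.8% and 42.5%.

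**Figure D4:**
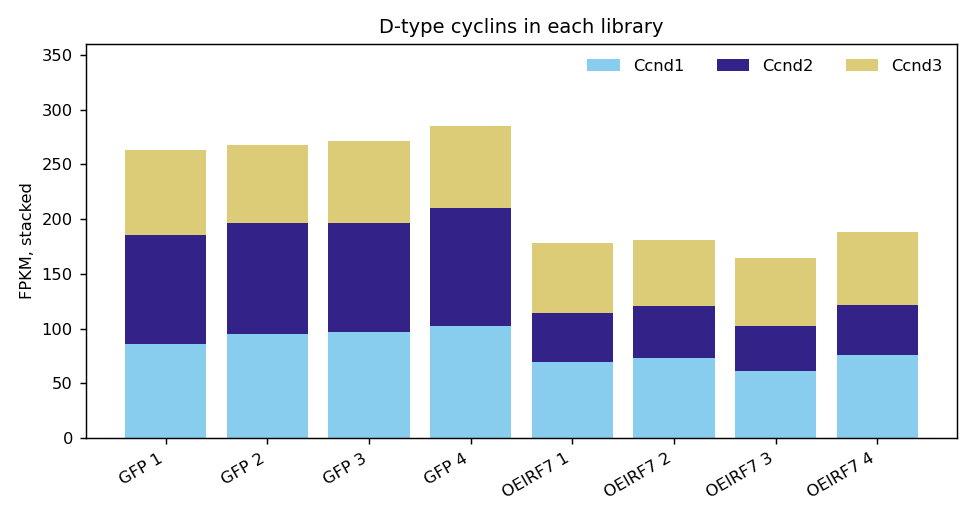
FPKM of Ccnd1, Ccnd2 and Ccnd3 stacked for each library (bars from 0). The bars reach 263 to 285 FPKM in the GFP libraries and 164 to 189 FPKM in the OEIRF7 libraries, and the dark Ccnd2 segment shrinks most, from 102 to 44.9 FPKM on average.

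The summed INK4 inhibitors were at 86.3 ± 4.38 FPKM in the GFP libraries and at 89.0 ± 3.83 FPKM in the OEIRF7 libraries (SD, n = 4 each), and the libraries overlapped. The sum holds Cdkn2a, whose value pools p16INK4a and p19Arf, Cdkn2b and Cdkn2c. It leaves out the INK4 gene Cdkn2d, at 4.71 FPKM with the label GFP and 5.29 FPKM with the label OEIRF7. The summed CIP/KIP inhibitors, nearly all of it Cdkn1a, were at 278 ± 7.72 and 332 ± 7.30 FPKM, without overlap. The ratio of D-type cyclin to INK4 RNA was 3.16 ± 0.256 with the label GFP and 2.0 ± 0.0698 with the label OEIRF7, and that of D-type cyclin to CIP/KIP RNA was 0.978 ± 0.0307 and 0.536 ± 0.0364. These are ratios of RNA levels, and no protein was measured in these files.

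The partners and regulators of the 10 genes in G1 were described next, as a list of 18 genes that holds none of the 10. This list and those that follow were chosen with earlier results of these data known, so their shares are descriptions only. Of these, 12 fell, 2 rose and 4 did not pass, with a median log2 fold change of -0.20, so that 77.8% were called, against 58.9% of all tested genes. The kinase partners of the cyclins moved in both directions. Cdk4 fell by 0.17 on the log2 scale, with means of 229 ± 6.53 and 204 ± 5.51 CPM (SD, n = 4 each), and Cdk6 fell by 0.38, with means of 122 ± 2.45 and 93.8 ± 2.26 CPM, while Cdk2, the partner of cyclin E1, rose by 0.49, with means of 15.5 ± 0.989 and 21.7 ± 1.76 CPM (edgeR adjusted p = 6.1e-04, 2.5e-07 and 3.6e-05). Ccne2, which encodes the other E-type cyclin, fell by 0.44 on the log2 scale (edgeR adjusted p = 0.011), the same direction as Ccne1. Of the pocket proteins that the kinases phosphorylate, Rb1 fell by 0.35 and Rbl2 fell by 0.50 on the log2 scale (edgeR adjusted p = 5.4e-06 and 2e-06), and Rbl1 had a log2 fold change of -0.02 (adjusted p = 0.84). The fourth INK4 gene, Cdkn2d, had a log2 fold change of 0.08 (edgeR adjusted p = 0.53), and did not pass the test either. Cdc37, which encodes the chaperone that loads kinases such as CDK4 onto HSP90, was the other gene that rose, by 0.25 on the log2 scale (edgeR adjusted p = 9.1e-06). The largest fall in the list was that of Cdkn3, a phosphatase gene expressed in dividing cells, by 1.01 on the log2 scale at 1.39 and 0.682 CPM, a level that rests on few reads (edgeR adjusted p = 0.010).

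Targets of E2F at the entry into S phase, 20 genes beside Ccne1, did not move one way. Of these, 7 fell, 3 rose and 10 did not pass, with a median log2 fold change of -0.07, so that 50% were called, against 58.9% of all tested genes. Ccna2, the cyclin that follows Ccne1, fell by 1.47 on the log2 scale, with means of 7.37 ± 0.868 and 2.66 ± 0.531 CPM (SD, n = 4 each, edgeR adjusted p = 7.1e-07). Tyms, which makes thymidylate, fell by 0.63, and Cdc6, a licensing factor of replication origins, fell by 0.89 on the log2 scale (edgeR adjusted p = 1.6e-06 and 0.0033). Cdt1, the licensing partner of Cdc6, rose by 0.78, and Orc1 and Slbp rose by 0.50 and 0.24 on the log2 scale (edgeR adjusted p = 1.3e-04, 0.032 and 0.0019). Orc1 missed the threshold without GFP library 1, 3 or 4 or without OEIRF7 library 4 (log2 fold changes of 0.38 to 0.51, edgeR adjusted p = 0.054 to 0.11). E2f1 itself had a log2 fold change of -0.01 (adjusted p = 0.89).

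Cdkn1a was set beside 20 other genes known to be switched on by p53. Of these, 7 rose like Cdkn1a, 11 fell and 2 did not pass, with a median log2 fold change of -0.17. The share that rose was 35% and the share that fell 55%, against 29% and 29.9% of all tested genes. Trp53, the gene of p53, rose by 0.39 on the log2 scale, with means of 85.1 ± 4.33 and 112 ± 3.69 CPM (SD, n = 4 each, edgeR adjusted p = 1.4e-06). Mdm2, the ubiquitin ligase that p53 induces against itself, rose by 0.40, and the stress gene Gadd45a rose by 1.33 on the log2 scale (edgeR adjusted p = 1e-06 and 7.8e-10). Plk2 (0.65), Pmaip1 (0.48), Btg2 (0.45), Plk3 (0.27) and Tigar (0.24) also rose by these log2 fold changes. On the other side, Trp53inp1 fell by 1.57, the death receptor gene Fas fell by 1.09 and Eda2r fell by 0.71 on the log2 scale (edgeR adjusted p = 7.6e-12, 2.6e-07 and 1.9e-09).

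Of 21 transcriptional regulators known to act on the 10 genes, 11 rose, 5 fell and 5 did not pass, with a median log2 fold change of 0.31. The share that rose was 52.4% and the share that fell 23.8%, against the same 29% and 29.9%. Egr1, an immediate early gene, rose by 0.96, with means of 14.8 ± 2.74 and 28.8 ± 4.08 CPM (SD, n = 4 each, edgeR adjusted p = 7.2e-06). Myc, which is known to act on Ccnd2 as an activator and on Cdkn1a and Cdkn2b as a repressor, rose by 0.82 on the log2 scale, with means of 24.7 ± 1.36 and 43.6 ± 4.17 CPM (edgeR adjusted p = 8.9e-08). Tbx3, a repressor of the Cdkn2a locus, rose by 0.88 on the log2 scale, and the Polycomb genes Cbx7 and Bmi1, which also act on that locus, fell by 0.85 and 0.16 (edgeR adjusted p = 1.8e-05, 0.011 and 0.0051). The value of Cbx7 rested on GFP library 1, at 4.55 CPM with the other GFP libraries at 1.84 to 2.71, and without it the log2 fold change was -0.53 (edgeR adjusted p = 0.051). The TGF-β mediators Smad2 and Smad3 fell by 0.09 and 0.19 on the log2 scale, and Foxo3, an activator of Cdkn1b, fell by 0.13 (edgeR adjusted p = 0.049, 0.013 and 0.024). The other Smad and Foxo genes of this list did not fall. Smad7 and Foxo4 rose by 0.39 and 0.31 on the log2 scale (edgeR adjusted p = 7.1e-07 and 9.5e-04). Smad4 and Foxo1, at 0.08 and 0.05, did not pass (edgeR adjusted p = 0.12 and 0.58). Smad2 missed the threshold without GFP library 3 or 4 or any one of the OEIRF7 libraries (log2 fold changes of -0.09 to -0.06, edgeR adjusted p = 0.058 to 0.16). Foxo3 missed it without GFP library 3 or 4 or OEIRF7 library 1 or 2 (-0.13 to -0.11, edgeR adjusted p = 0.051 to 0.081).

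**Figure D5:**
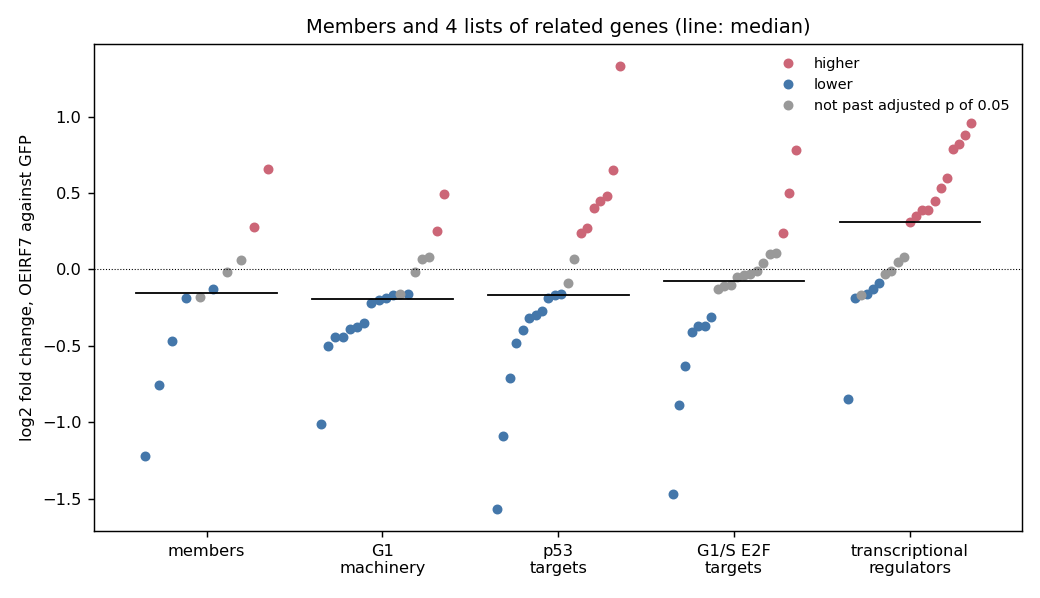
Log2 fold changes (y axis, OEIRF7 against GFP) of the 10 genes and of the 4 lists of related genes, each point a gene, red for higher, blue for lower and grey for genes that did not pass an adjusted p of 0.05, with the median of each list as a line. The medians are -0.16, -0.20, -0.17, -0.07 and 0.31 from left to right, and each list holds genes on both sides of 0.

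The 10 genes lie on chromosomes 4, 6, 7 and 17, and Cdkn2a and Cdkn2b are neighbours 11.6 kb apart. The nearest tested gene on each side of each of the 10, taken by position only, gave 18 different genes, of which 6 rose, 5 fell and 7 did not pass. The share called was 61.1%, near that of all tested genes. Beside Ccnd2, Tigar at 15.6 kb rose by 0.24 on the log2 scale (edgeR adjusted p = 0.012), against the fall of Ccnd2, and Parp11 on the other side had a log2 fold change of 0.08 (adjusted p = 0.28). Beside the Cdkn2a and Cdkn2b pair, Mtap at 93.4 kb rose by 0.19 and Dmrta1, as far off as 368.4 kb, rose by 2.51 on the log2 scale (edgeR adjusted p = 0.001 and 8.1e-06). Both neighbours of Ccne1 fell slightly, Uri1 at 74.4 kb by 0.16 and 1600014C10Rik at 75.7 kb by 0.23. Both tested neighbours of Cdkn1c fell, Slc22a18 at 12.7 kb by 0.82 and Trpm5 at 363.7 kb by 1.27 on the log2 scale, against the rise of Cdkn1c.

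Across the 8 libraries, the gene whose log2 CPM followed each of the 10 most closely was looked up among about 10319 other genes with a mean above 5 CPM. The libraries fall into 2 groups, so Pearson's r follows the difference between the groups for any gene that moved, and it is given as a description. The closest genes were Ankrd1 for Ccnd2 (r = 0.999), Cttn for Ccnd1 (0.988), Atp13a2 for Ccnd3 (0.993) and Ccnd3 for Ccne1 (0.993). For the inhibitors they were Cers5 for Cdkn1a (r = 0.999), Srp19 for Cdkn1b (0.960), Afg1l for Cdkn1c (0.984), Mrpl50 for Cdkn2a (0.909), Thoc6 for Cdkn2b (0.947) and Clca2 for Cdkn2c (0.984). An r above 0.95 was reached by 1456 genes with Ccnd2 and by 1072 with Cdkn1a, and by 0 genes with Cdkn2a or Cdkn2b.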

How the data were processed

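RNA-seq was analysed for 4 libraries labelled GFP and 4 labelled OEIRF7. Per the paper's methods, the authors trimmed reads with Trimmomatic, mapped them to GRCm38 with HISAT2, and counted reads per gene with HTSeq-count. The deposited counts are raw. The authors computed the FPKM with Cufflinks, normalized for gene length and depth. Tool versions and the strand setting are not given in the sources used here, and the labels and the paper differ on the kits. The authors' columns of group means, fold changes, p-values and FDR were not used.

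The test of the counts was run with edgeR 4.0.16 under R 4.3.3 (filterByExpr, TMM, glmQLFit, glmQLFTest, no covariates), with Benjamini-Hochberg adjustment over 13533 genes and an adjusted p under 0.05. Log2 CPM for permutation tests and correlations used a prior count of 2. The smallest p of the exact two-sided permutation test is 0.029. No 2 replicates agreed within sampling noise (chi-square per degree of freedom 2.69 to 8.67). In 121 symbols the letters GFP stood in place of nc, and these were restored by Ensembl identifier. The members and lists were chosen with earlier results of these data known. All genes of the main set were named, with a fixed few of the CDKs and pocket proteins, the 4 largest called changes of each list and the genes against its majority. Neighbours were named by position, and those shown, like overlapping genes, E2f1, Smad4, Smad7, Foxo1, Foxo4 and the marker genes, were picked with their values known.

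The alternatives tried were DESeq2 1.42.0, library size alone, upper-quartile scaling, other filters on low counts, the replicate number as a block, limma 3.58.1 on the log2 of FPKM with 1 or 0.1 added (mean above 0.1 FPKM), and leaving out each library. The scripts were tested on simulated data.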

Additional observations from a re-analysis of the deposited data

Results flagged for a closer look

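In groups of 4 libraries, 1 value was called apart when its gap to the nearest other value, divided by the range, was above Dixon's 95% critical value. Of 56 groups examined 4 were called, and chance gives about 1 in 20. The CPM of Cdkn1b in OEIRF7 library 2 was 45.0, with the others at 42.8 to 43.0. In FPKM, Cdkn1b in GFP library 3 was at 19.9, with the others at 17.3 to 17.7. The share of Ccnd1 in the D-type cyclins was 32.6% in GFP library 1, with the others at 35.4% to 35.9%. The share of Ccnd2 was 36.7% in GFP library 3, with the others at 37.8% to 37.9%.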

How the results depend on the processing

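Each of the 10 log2 fold changes was recomputed under 16 alternatives, and 146 of the 160 values kept their direction and their side of the threshold. The called members other than Cdkn1b did so under each alternative, with Ccnd2 between -1.24 and -1.17, Ccne1 between -0.86 and -0.64 and Cdkn1c between 0.46 and 0.75. Cdkn1b also missed the threshold with limma on log2(FPKM + 1) (-0.11, adjusted p = 0.10) and on log2(FPKM + 0.1) (-0.11, adjusted p = 0.11). Cdkn2a, near 0 throughout, had a log2 fold change of 0.01 with no scaling beyond library size and with both limma fits, 0 without GFP library 2 and 0.02 without OEIRF7 library 4, and lay between -0.06 and 0.02 over all fits that left out 1 library. The cause of these changes was not tested. The number of members called lower was 4 to 6 and the number called higher was 2 under each alternative. Of the lists, 12 to 14 genes were called for the G1 machinery, 8 to 11 for E2F targets, 15 to 19 for p53 targets and 11 to 16 for the regulators. In CPM in place of FPKM the shares of Ccnd1, Ccnd2 and Ccnd3 in the D-type cyclins were 31.7%, 56.8% and 11.6% with the label GFP, and 39.8%, 42.5% and 17.7% with the label OEIRF7. No scaling beyond library size moved the median of all genes to 0.029, and limma on log2(FPKM + 1) gave 55% higher among the called genes, against 49.2%. With the replicate number as a block, 8211 genes were called against 7969, and Cdkn2c passed (-0.18, adjusted p = 0.038). The deviations of same-numbered libraries correlated at 0.08, 0.10, 0.14 and 0.10, so these libraries were taken to share only a number, although 8 of 8 libraries correlated best with their own number, a hint from the data and not the design. Cdc6 and Cdkn3, near 1 CPM, and Cdkn1c, with 39 to 94 counts in a library, rest on few reads.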
